A study of Mus musculus with 2 samples.

Results

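The collagen chain genes encode the subunits of the collagen triple helix, and their expression was compared between urogenital sinus mesenchyme (UGM) cells with and without testosterone plus estradiol (T+E2). Every gene whose symbol on the array has the form of a collagen chain name (Col, the type, a, the chain) and that had a probe set naming it alone was taken, which gave 42 of 18193 named genes. The intensity of the gene's probe set, the set of short probes that reads it, reached the floor used here (32, or 5 on the log2 scale) on at least 1 array for 23 of the 42. These 23 genes are called measured. Measured genes made up 54.8% of collagen chain genes and 56.4% of all named genes.

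UGM is the fetal stroma around the urogenital sinus, the structure that gives rise to the prostate. Male C57BL/6 mice at day 16 were the source of the cells. For 72 h both cultures were kept in RPMI medium, 5% serum freed of most steroids by dextran-coated charcoal, and the antimicrobial agent Plasmocin at 5 µg/ml. The untreated culture received nothing further and the other received testosterone at 12 nM and estradiol-17β at 120 pM. Each condition was read on 1 array of total RNA. The sample titles give 24 h instead of 72 h. The sample descriptions have the untreated cells confluent and the T+E2 cells close to it, while the growth protocol gives 80% for both, so a difference in density cannot be told apart from the hormones. The labels do not say how many animals gave the cells or whether they were a line.

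Collagens are trimers of chains wound into a triple helix. Fibrillar collagens (types I, II, III, V, XI, XXIV and XXVII) form the rope-like fibrils of connective tissue, and types V and XI sit inside fibrils and help to set their diameter. Type IV forms the sheet of the basement membrane, the layer between epithelium and stroma. FACIT collagens (fibril-associated collagens with interrupted triple helices) decorate fibril surfaces, and type VI forms beaded filaments around cells. In the urogenital sinus the mesenchyme lays down much of the matrix through which epithelial buds grow.

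Col12a1 and Col5a3 were the 2 genes of the 23 that stood at least 2-fold above the untreated array, and 0 stood 2-fold or more below it. They are 8.70% of the 23, against 4.96% of all 10267 measured genes at least 2-fold higher and 4.01% at least 2-fold lower. At 1.5-fold, 7 collagen genes were higher (30.4%, against 17.1% of measured genes) and 2 were lower (8.70%, against 14.1%). In all, 19 of 23 lay above 0, or 82.6%, against 55.8% of measured genes, and 4 lay below 0, against 43.7%. Of these, Col6a4 and Col18a1 reached the floor only on the T+E2 array, and Col23a1 only on the untreated array. The filter thus fixed their direction, which also holds for Col6a4 among the 7 at 1.5-fold. Over all measured genes, 258 reached the floor on 1 array only. The median log2 difference, T+E2 minus untreated, was 0.33 for the collagen genes and 0.07 for all measured genes. With 1 array per condition there is no replicate, so no difference has a test or an error, the number of arrays limits the precision, and fewer cells of a type cannot be told apart from less RNA per cell. Intensities of different genes come from different probes and are not ranked against each other.

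**Figure D1:**
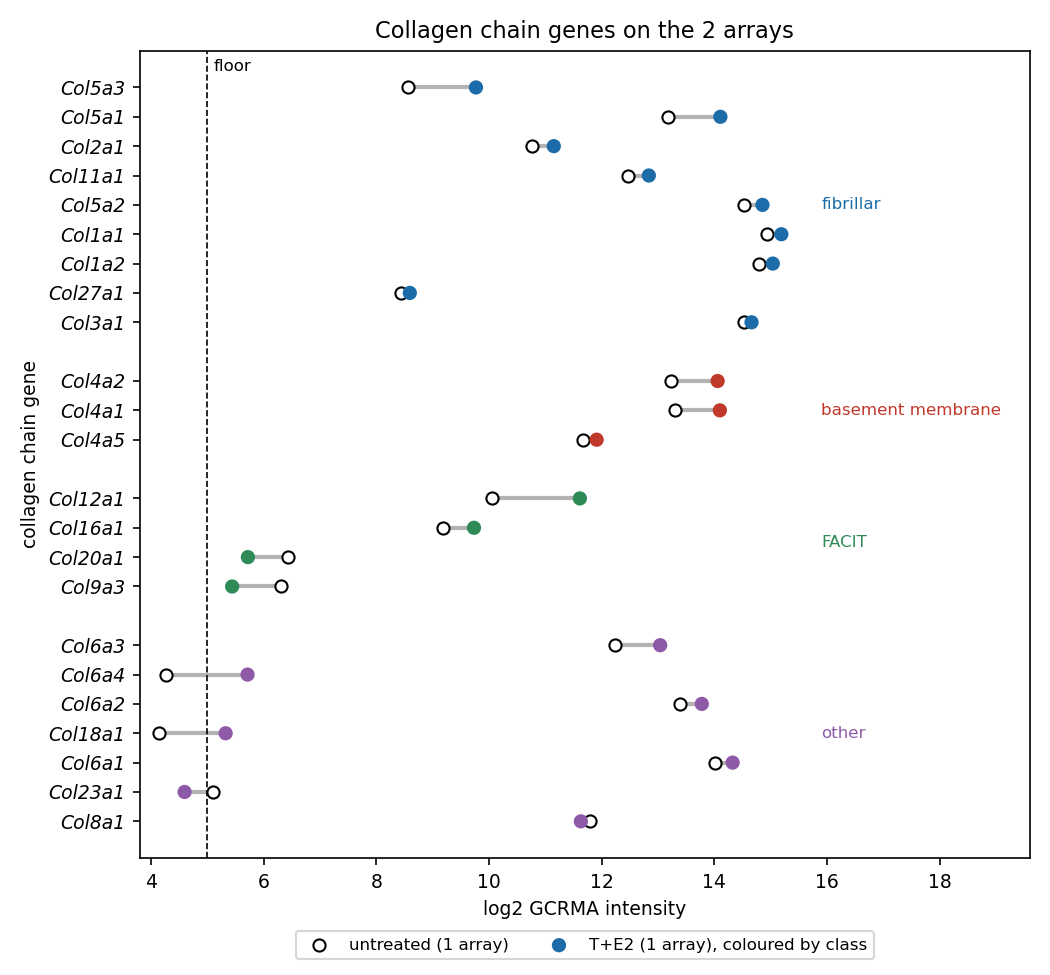
Log2 intensity (x axis) of each measured collagen chain gene (y axis, ordered within class by difference) on the untreated array (open circles) and the T+E2 array (filled circles), with the floor of 5 as a dashed line. Col12a1 and Col5a3 have the widest steps to the right among genes above the floor on both arrays, and Col8a1, Col9a3, Col20a1 and Col23a1 step to the left.

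All 9 measured fibrillar genes lay above 0 in their brightest probe sets (55.8% of all measured genes did), with a median of 0.33. Of the 9, 1 was at least 2-fold higher (4.96% of all). With a trend with gene length on the chromosome removed, 5 of the 9 lay above 0 and the median was 0.12. Col1a1 and Col1a2 are the chains of type I collagen, the main collagen of most stroma. Col1a1 had an intensity of 31172 untreated and 37371 with T+E2, a log2 difference of 0.26. Col1a2 stood at 28289 and 33626, a difference of 0.25. The gap between the chains was 0.01 in these brightest probe sets. A second Col1a1 probe set gave 0.10, and the other probe sets of Col1a2 gave 0.22 and -1.98. With the mean over probe sets Col1a1 stood at 0.18 and Col1a2 at -0.51, so the direction of Col1a2 depends on the probe set. Col3a1, the single chain of type III collagen, which co-assembles with type I in soft tissue, was at 23737 and 25882 (0.12). In their brightest probe sets these 3 genes differed by at most 1.20-fold.

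The type V chains were less alike. Col5a3, whose chain joins a less common form of type V, went from 377 untreated to 871 with T+E2, 2.31-fold higher (log2 1.21). Among all measured genes, 2.71% were as high or higher. The other probe set of Col5a3 was under the floor (4.46 and 4.50), and the mean over probe sets gave 0.61. Col5a1, the chain found in nearly every type V molecule, was at 9256 and 17647 (1.91-fold, log2 0.93). Its 3 probe sets gave 0.62, 0.93 and 1.23. Col5a2, its usual partner, was at 23555 and 29604 (0.33), with a second probe set at 0.31. The lowest and highest of the type V chains were thus 0.88 apart on the log2 scale in their brightest probe sets.

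Chains best known from cartilage were also read. Col2a1, the type II chain, was at 1727 and 2271 (0.39), and Col11a1, which assembles with it in cartilage fibrils, was at 5676 and 7315 (0.37), with a second probe set at 0.77. Of the chondrocyte markers, Sox9, a transcription factor that is also found in other fetal tissues, was measured at 4592 and 6475 (0.50), while Acan, Matn1, Matn3, Cnmd and Snorc lay under the floor on both arrays. Sox9 alone was thus above the floor among 6 markers, and Col11a2, the other type XI chain of cartilage, was under it too. Col27a1, a fibrillar chain of developing cartilage and other tissues, was at 345 and 386 (0.16).

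Bases before the transcription start of Col5a3 and Col5a1, the fibrillar genes that differed most, are shown with those of Col1a2 and Col3a1, which differed little. The bases come from RefSeq, build GRCm38.p6. They run 5′ to 3′ on the gene's strand from 250 bases before the start to the edge of the annotated gene, which gives 200 bases for Col5a3 (chr9:20815118-20815317, minus strand), 206 for Col5a1 (chr2:27886175-27886380, plus), 250 for Col1a2 (chr6:4505368-4505617, plus) and 250 for Col3a1 (chr1:45311288-45311537, plus). The bases of Col5a3 and Col5a1 thus stop short of the starts used (20815067 and 27886425), while those of Col1a2 and Col3a1 run up to theirs. Capitals mark matches on either strand to CCAAT, the box bound by NF-Y, to GGGCGG, the GC box bound by Sp1, and to TATAAA, the TATA box.
Col5a3: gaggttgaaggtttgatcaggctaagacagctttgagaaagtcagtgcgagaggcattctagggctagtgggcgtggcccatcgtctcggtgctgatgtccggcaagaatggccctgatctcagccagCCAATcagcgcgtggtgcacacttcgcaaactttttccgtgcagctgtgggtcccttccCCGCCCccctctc
Col5a1: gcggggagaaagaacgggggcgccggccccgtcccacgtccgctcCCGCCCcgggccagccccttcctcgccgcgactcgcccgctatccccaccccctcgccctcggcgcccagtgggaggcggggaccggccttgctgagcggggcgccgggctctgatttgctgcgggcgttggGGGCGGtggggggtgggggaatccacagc
Col1a2: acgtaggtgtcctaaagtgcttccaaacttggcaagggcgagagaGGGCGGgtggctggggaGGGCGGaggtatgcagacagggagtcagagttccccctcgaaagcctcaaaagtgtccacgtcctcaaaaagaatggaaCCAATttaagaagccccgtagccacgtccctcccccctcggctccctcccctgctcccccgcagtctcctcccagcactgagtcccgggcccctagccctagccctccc
Col3a1: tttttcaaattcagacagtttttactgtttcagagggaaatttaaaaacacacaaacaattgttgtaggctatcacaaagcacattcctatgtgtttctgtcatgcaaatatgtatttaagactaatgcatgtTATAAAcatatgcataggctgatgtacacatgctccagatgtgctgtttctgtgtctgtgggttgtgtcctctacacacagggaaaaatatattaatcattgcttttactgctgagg
The printed bases of Col5a3 hold 1 CCAAT and 1 GC box. Those of Col5a1 hold 2 GC boxes, and those of Col1a2 hold 2 GC boxes and 1 CCAAT. Those of Col3a1 hold the letters TATAAA and neither of the others. All of these are matches to letters, and their distance from the start was not weighed. The printed stretches cover unlike regions, since the bases nearest the start are left out for Col5a3 and Col5a1.

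The 3 measured basement membrane genes all lay above 0 (55.8% of all measured genes did), with a median of 0.79, and none reached 2-fold. With a trend with gene length on the chromosome removed, the median was 0.46 and 2 of the 3 lay above 0, and without a floor it was 0.14 over all 6 genes of the class. Col4a1 and Col4a2 encode the chains of the common type IV trimer. Col4a1 went from 10151 untreated to 17532 with T+E2, 1.73-fold higher (0.79), and its second probe set gave 1.16. Col4a2 was at 9581 and 17058, 1.78-fold higher (0.83). The gap between the partner chains was 0.04 on the log2 scale. Col4a5, a chain of a scarcer type IV trimer, was at 3245 and 3848 (0.25), with a second probe set at 0.39. The chains Col4a3, Col4a4 and Col4a6 were under the floor on both arrays.

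Col4a1 and Col4a2 lie head to head on mouse chromosome 8 and are transcribed in opposite directions. In RefSeq (GRCm38.p6) the annotated start of Col4a2 on the plus strand and that of Col4a1 on the minus strand bound a stretch of 22 bases, counting both. Col4a2 starts at its lower end and Col4a1 at its upper end, so the stretch lies inside both annotated genes, which overlap there. It is shown in capitals with its neighbouring bases (chr8:11312801-11312830, plus strand).
Col4a1 and Col4a2 shared start: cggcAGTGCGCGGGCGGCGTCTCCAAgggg

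FACIT genes differed in both directions, with 2 of 4 measured genes above 0 and 2 below, and 1 at least 2-fold higher. Over all measured genes, 55.8% lay above 0, 43.7% below and 4.96% were at least 2-fold higher. Col12a1, whose long chain binds the surface of type I fibrils, went from 1059 untreated to 3130.0 with T+E2, 2.96-fold higher (1.56). Among all measured genes, 1.01% were as high or higher. Of its 4 probe sets only this one was measured. Of the other 3, one went from 6.81 to 17.2, below the floor of 32, and the remaining ones stayed between 4.54 and 4.71. With the mean over all probe sets, these dim ones included, the untreated mean of Col12a1 fell under the floor (4.30 against 5.04 with T+E2, on the log2 scale), which bounds its difference at 0.04 or more and gives 0.74 without a floor. Col5a3, which has 1 such dim probe set, then stood at 0.61. Col16a1, which is found with thin fibrils and near basement membranes, was at 578 and 850.4 (0.56), on a single probe set.

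The other FACIT genes were dim and lower with T+E2. Col9a3, a chain of the type IX collagen of cartilage fibrils, was at 79.1 and 43.3 (-0.87, or -1.03 with a trend with signal level removed). Only 1 of the 3 Col9a3 probe sets was measured, and the others lay between 4.75 and 6.65, under the floor. The partner chains Col9a1 and Col9a2 were under the floor on both arrays. Col20a1 was at 86.3 and 52.6 (-0.71). That probe set carries the suffix for probes shared with other transcripts, and a probe set without the suffix went from 82.8 to 35.9 (-1.20). Both lower genes thus lay not far above the floor of 32 on either array.

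Among the other collagens, 7 genes were measured, of which 5 lay above 0 and 2 below, with a median of 0.32 and none at 2-fold. Over all measured genes, 55.8% lay above 0 and 43.7% below. Type VI collagen, the beaded filament of the pericellular matrix, was higher in each of its 3 main chains. Col6a1 was at 16503 and 20511 (0.31) and Col6a2 at 10797 and 14035 (0.38). Col6a3, the large chain that completes the trimer, was at 4813 and 8411 (0.81), 1.75-fold higher. Col6a3 thus stood 0.49 above Col6a1 on the log2 scale. Col6a4 was under the floor in untreated cells (19.2) and above it with T+E2 (52.4), at least 1.64-fold higher, and at 1.45 on the log2 scale with a floor of 4.

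Col8a1, a short-chain collagen of vessel walls and other matrices, was lower with T+E2 in each of its 3 probe sets, at 3563 and 3168 in the probe set used (-0.17), with the others at -0.13 and -0.52. Col18a1, a basement membrane proteoglycan whose end fragment is endostatin, went from 17.7, under the floor, to 40.0 (at least 1.25-fold higher, and 1.18 on the log2 scale with a floor of 4). Col23a1, a transmembrane collagen, went from 34.4 to 24.1, under the floor (at least 1.08-fold lower). Its difference is bounded by the floor, as are those of Col18a1 and Col6a4.

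The other 19 collagen chain genes stayed between 4.34 and 6.60 on both arrays, with medians of 4.61 untreated and 4.66 with T+E2. They were Col11a2 and Col24a1 among fibrillar genes, Col4a3, Col4a4 and Col4a6 of type IV, and the FACIT genes Col9a1, Col9a2, Col14a1, Col19a1 and Col22a1. The rest were Col6a5, the type VII anchoring fibril chain Col7a1, Col8a2, the hypertrophic cartilage chain Col10a1, Col15a1, Col26a1 and the transmembrane chains Col13a1, Col17a1 and Col25a1. No difference is given for them.

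**Figure D2:**
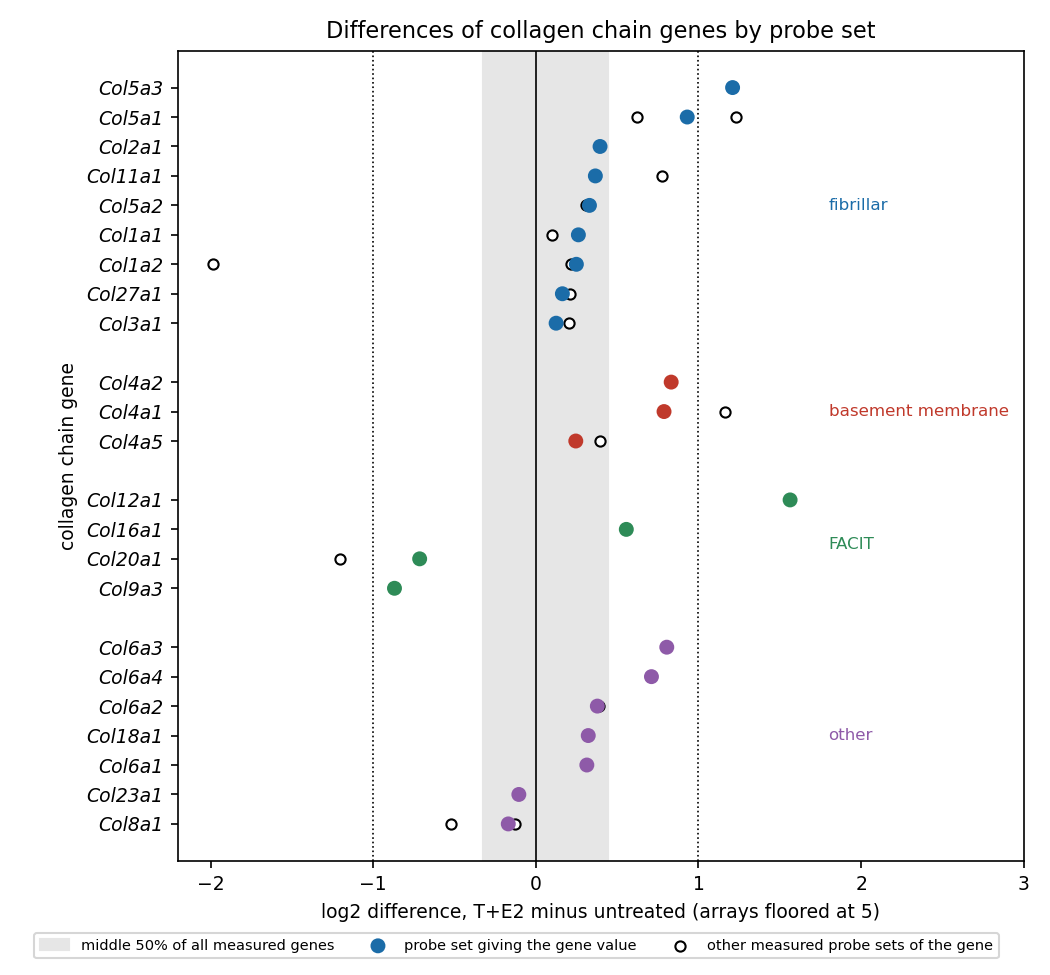
Log2 difference, T+E2 minus untreated (x axis), of each measured collagen chain gene (y axis), with the probe set that gives the gene's value as a filled circle, coloured by class, and its other measured probe sets as open circles. The grey band holds the middle 50% of all measured genes (-0.32 to 0.45) and dotted lines mark 2-fold. The open circle farthest from its filled one is that of Col1a2, at -1.98.

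Probe sets of a collagen gene mostly lay on the same side. Of 12 genes with more than 1 measured probe set, 11 had all of them above or all below 0 (91.7%, against 69.4% of all such genes), and their SD within a gene had a median of 0.17, against 0.22 over all genes. Col1a2 was the exception. Its bright probe sets gave 0.25 and 0.22, while the third went from 836 to 211 (-1.98). Taking the mean over its probe sets turned Col1a2 to -0.51. The 12 genes and the genes they are set beside were not matched for signal level.

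Across all measured genes the difference grew with genomic span (the gene's length on the chromosome, introns included), by 0.41 (log2) per 10-fold of span (r = 0.36 across 10235 genes). Collagen genes are long, with a median span of 107 kb against 24.5 kb for all measured genes. Within the 23 collagen genes r was 0.25 and Spearman's rho 0.16, a description over genes that share the same arrays. Measured genes with spans between the quartiles of the collagen genes (35.1 and 129.7 kb; 2984 genes) had a median difference of 0.28, and 71.0% of them lay above 0, beside 0.33 and 82.6% for the collagen genes.

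With the trend removed, the collagen median was 0.27 and 13 of 23 genes lay above 0, against 52.0% of all measured genes. Fibrillar genes then had a median of 0.12 with 5 of 9 above 0, since Col3a1, Col5a2, Col11a1 and Col27a1 turned below it. Col4a5 (-0.20) and Col18a1 (-0.01) also turned. Col12a1 (1.22) and Col5a3 (1.04) stayed at least 2-fold higher, Col5a1 stood at 0.55, Col6a3 at 0.54, Col4a2 at 0.47 and Col4a1 at 0.46. Type I, with Col1a1 at 0.27 and Col1a2 at 0.12 in their brightest probe sets, stayed above 0. What part span has in these differences was not tested.

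**Figure D3:**
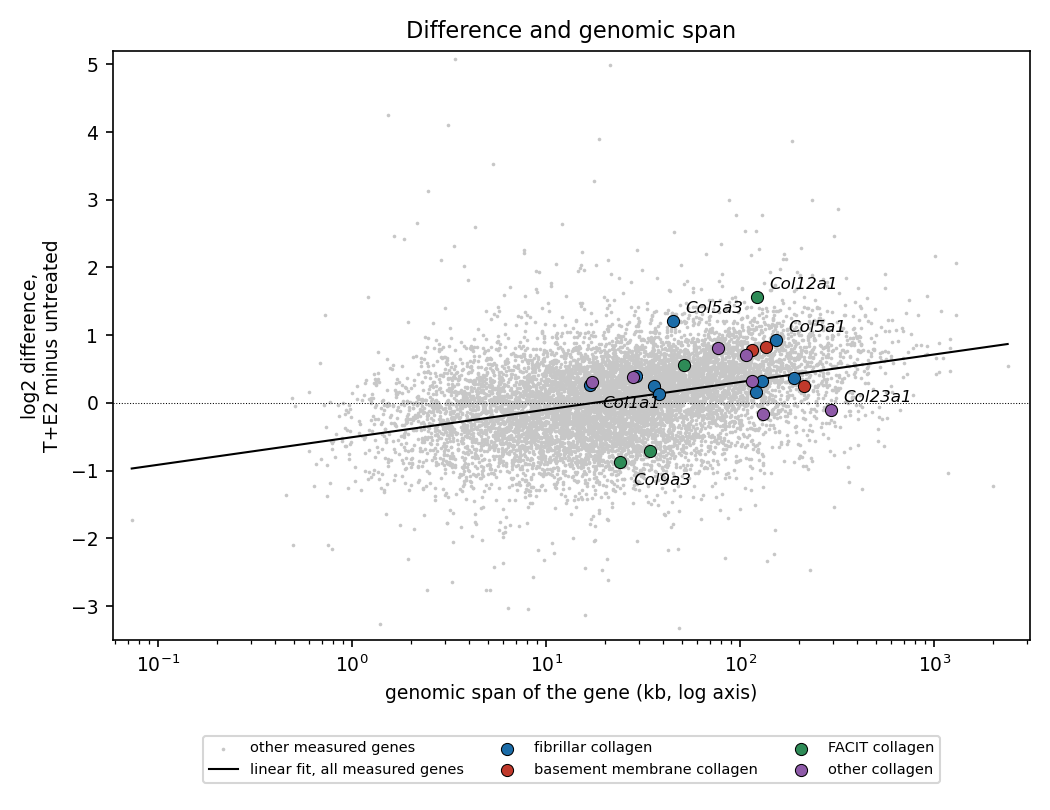
Log2 difference, T+E2 minus untreated (y axis), against the genomic span of the gene in kb (x axis, log scale) for all measured genes in grey and collagen chain genes in colour by class, with the linear fit over all measured genes. Col12a1 and Col5a3 lie well above the line, while Col9a3 and Col23a1 lie below it.

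Signal level also bears on the spread. The 11 collagen genes with a mean log2 intensity of 12 or more all lay above 0, with a median of 0.37, where 2100 measured genes of that level had a median of 0.02, an interquartile range of -0.27 to 0.30 and 52.3% above 0. The 2100 genes were not matched for span. Of the 11, Col3a1, Col5a2 and Col11a1 turned below 0 with the span trend removed, and Col1a2 with the mean over probe sets. The 6 collagen genes between 9 and 12 had a median of 0.48 and 5 above 0. The 4851 measured genes of that level had a median of 0.09 and 55.6% above 0. Of the 3 between 5 and 9, 1 lay above 0, with a median of -0.71, against 58.1% above 0 and a median of 0.11 for 3175 genes. The other 3 genes, Col6a4, Col18a1 and Col23a1, had a mean below 5.

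Genes that fold, process, cross-link, bind or degrade collagen were read from 6 lists. Of 81 listed genes, 76 were on the array under their own name and 59 were measured, with a median of 0.16. At 2-fold, 3 of the 59 were higher (5.08%, against 4.96% of all measured genes) and 1 was lower (1.69%, against 4.01%), leaving 55. The cross-linking list had the highest median, 0.51, and 5 of 5 measured members above 0 (55.8% of all measured genes were), 2 of them at least 2-fold higher (4.96% of all). Loxl4, a lysyl oxidase-like enzyme, went from 65.8 to 175 (2.65-fold, 1.41). Tgm2, a transglutaminase that joins matrix proteins, went from 4431 to 10130 (2.29-fold, 1.19), and its 4 probe sets lay between 1.19 and 1.36. Lox, the lysyl oxidase that starts collagen and elastin cross-links, was at 11684 and 13920 (0.25).

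Folding enzymes and chaperones had a median of 0.05, with 12 of 21 measured members above 0 (55.8% of all measured genes were). At 2-fold, 1 of the 21 was higher (4.76%, against 4.96% of all measured genes) and 0 were lower (4.01% of all). P3h2, a prolyl 3-hydroxylase known for acting on type IV collagen, went from 1113 to 2248 (2.02-fold, 1.01), and stood at 0.64 with the span trend removed. P4hb, the protein disulfide isomerase that is also the beta subunit of prolyl 4-hydroxylase, was at 23178 and 22444 (-0.05). Serpinh1, the collagen chaperone HSP47, was at 15085 and 15632 (0.05). P4hb and Serpinh1 thus differed by at most 1.04-fold in their brightest probe sets, and the other probe set of Serpinh1 gave -0.02.

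Of 3 measured propeptide processing genes, 0 reached 2-fold (4.96% of all measured genes were higher and 4.01% lower). Bmp1, the procollagen C-proteinase, was at 1021 and 702 (-0.54), with its other probe set at -0.06. Its enhancers Pcolce (0.10) and Pcolce2 (0.11) were slightly higher. All 5 measured collagen receptors lay above 0 (55.8% of all measured genes did), with a median of 0.37 and none at 2-fold. Mrc2, an endocytic collagen receptor, was at 1602 and 2673 (0.74), Itga1 at 173 and 225 (0.38), Ddr2 at 10200.1 and 11425 (0.16) and Itgb1 at 5526 and 5780 (0.06). With the span trend removed the receptor median was 0.01.

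Proteoglycans and fibril organisers spread in both directions, with 7 of 13 measured members above 0, 6 below and a median of 0.03. Over all measured genes, 55.8% lay above 0 and 43.7% below. At 2-fold, 0 of the 13 were higher and 1 was lower (7.69%), against 4.96% and 4.01% of all measured genes. Lum, a small proteoglycan that binds fibrils, was at 196 and 55.9 (-1.81). Sparc, a collagen-binding matricellular protein, was at 30077 and 30807 (0.03), and Fn1, the fibronectin on which collagen is laid down, at 19017 and 26622 (0.49), with a second probe set at -2.19. In the degradation list 8 of 12 measured members lay above 0 (55.8% of all measured genes did). Their median was 0.17, or 0.07 with the span trend removed. None of the 12 reached 2-fold, where 4.96% of all measured genes were higher and 4.01% lower. Fap, a stromal protease, went from 21.0, under the floor, to 51.9 (at least 1.62-fold higher), and Ctsk, the collagen-cutting cathepsin K, from 456 to 305 (-0.58). Mmp2 (0.36) and the inhibitor Timp2 (0.28) were higher by smaller amounts, and 1 of the 6 probe sets of Timp2 lay below 0.

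**Figure D4:**
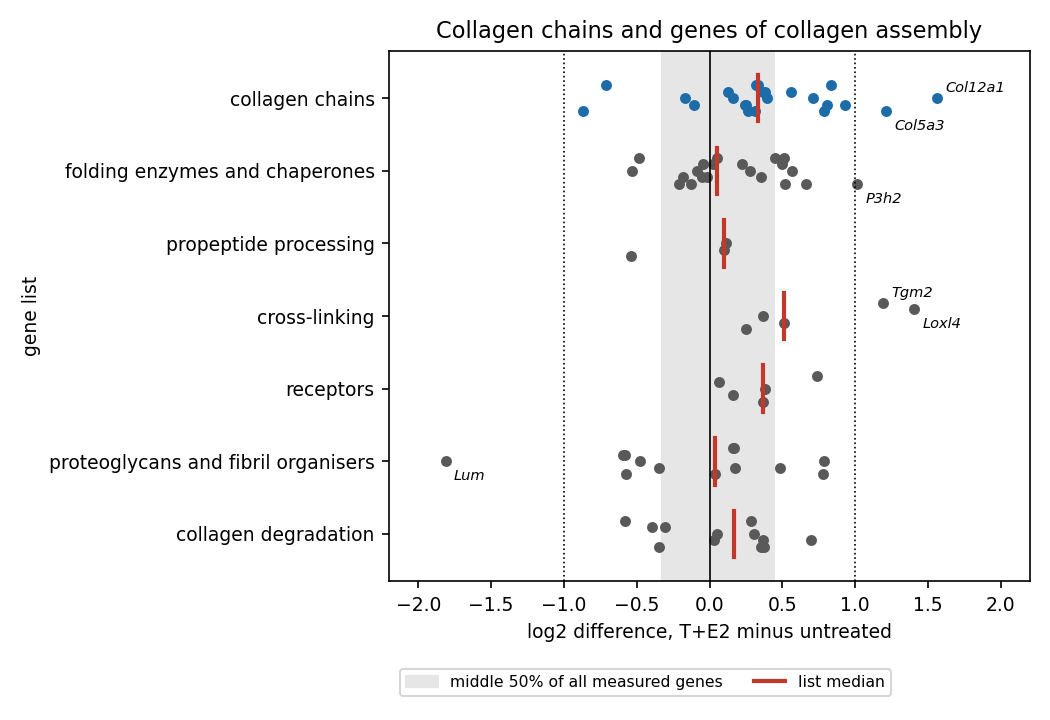
Log2 difference, T+E2 minus untreated (x axis), of each measured gene (points, offset vertically to show them) in the collagen chains and 6 lists of genes that act on collagen (y axis). Red bars are list medians, the grey band holds the middle 50% of all measured genes and dotted lines mark 2-fold. The cross-linking median is at 0.51 and the folding median at 0.05, and Lum is the farthest point to the left.

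Letters near the start were searched over the 250 bases before it, on both strands. Of the 23 measured collagen genes, 18 had an entry, with 20 windows in all. Col1a1, Col2a1, Col5a2, Col9a3 and Col12a1 had none. The GC box GGGCGG was in 14 of the 20 windows (70%, against 32.7% of all 32851 windows) and CCAAT in 9 (45%, against 33.8%). The 32851 windows were not limited to genes measured here, so the shares are not of like sets. With 20 windows for 18 genes, a gene can also count more than once. TATAAA was in 1 window, that of Col3a1, against 12.4% of all windows. The AP-1 letters TGANTCA were in 1, that of Col6a1, against 6.75%. AGAACA, the half-site read by androgen and glucocorticoid receptors, was in 1, that of Col20a1, against 16.1%. AGGTCA, the half-site of estrogen response elements, was in 3, those of Col11a1, Col20a1 and Col23a1, against 14.0%. No 2 matches to different motifs overlapped in the collagen windows. Neither Col5a3 nor Col5a1 held the AP-1 letters or either half-site in this window, and a missing match says only that the letters are not there.

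Of 45101 probe sets, 42.9% were at the floor or above in untreated cells and 42.1% with T+E2. The processing (GCRMA, described below) equalises the arrays' distributions, so these like shares do not show that the arrays were alike. The 18 hybridization spikes, RNA added in equal amounts, differed by -0.25 to 0.09. Centring on the median of all genes changes the 2-fold counts over all genes from 509 higher and 412 lower to 408 and 520, and leaves the 2 collagen genes in place. Of 8 mesenchyme markers 7 were measured and all 7 lay above 0 (55.8% of all measured genes did), with Vim at 0.10 and Thy1 under the floor. Their median was 0.10, near the 0.07 of all measured genes. Twist2 (0.01) and Prrx1 (0.02) hardly differed, and Fap reached the floor only with T+E2. Of 10 epithelial markers 2 were measured, Cdh1 (41.4 and 189.9) and Trp63, and Epcam and every keratin of the list were under the floor. Of 7 endothelial markers Tek alone was measured, of 5 Schwann and neural markers S100b alone, and of 6 leukocyte, 5 skeletal muscle and 5 osteoblast markers none. The part of other cells in the collagen differences was not tested.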

How the data were processed

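Expression was measured on Affymetrix mouse expression arrays in 1 untreated and 1 T+E2 culture. The authors deposited 1 intensity per probe set on a linear scale (3.82 to 67555 untreated, 3.75 to 71889 with T+E2), made with GCRMA per the submitters' processing notes with no version named. GCRMA adjusts background by probe sequence and equalises the arrays' distributions, so a shift of all genes would be removed and weak signals collapse to a low value.

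Intensities were converted to log2 here, with no further scaling. A floor of 5 was applied to both arrays before differences were formed, and a gene under it on 1 array gets a bound. Of 45101 probe sets, 34945 named 1 gene; 932 with several genes, 9160 not listed and 64 controls were left out. Names came from the platform annotation, updated by gene identifier through RefSeq (GRCm38.p6), and a gene's value is that of its brightest probe set by mean log2. Every measured collagen chain gene is named, and from each other list the members at 2-fold, or else the 2 that differed most, and the 2 of highest mean signal; markers and further members are named as examples. The members and lists were chosen with earlier results of these data known. The counting steps were checked for errors on simulated intensities, which is no test of the collagen counts. Python 3.11.15 with pandas 2.3.3 and statsmodels 0.14.6 was used.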

Additional observations from a re-analysis of the deposited data

How the results depend on the processing

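No paired analysis was possible because each condition has 1 array, and no array could be left out. Alternatives were a floor of 4, of 6 or none, other probe set rules, centring on all genes or on the spikes, removal of the trend with span or with level, and a 1.5-fold threshold. The count at least 2-fold higher, 2 as reported, became 4 with a floor of 4 and 4 without a floor, where Col6a4 (1.45) and Col18a1 (1.18) joined, and 7 at 1.5-fold. It became 0 with the mean over all probe sets, where dim probe sets entered and Col12a1 stood at a bound of at least 0.04 (0.74 with no floor, a setting added after the data were seen) and Col5a3 at 0.61. The count at least 2-fold lower, 0 as reported, became 1 with probe sets that lack a cross-hybridization suffix, where the gene has one (Col20a1, -1.20), 1 with the level trend removed (Col9a3, -1.03) and 2 at 1.5-fold. The median of 0.33 became 0.090 without a floor, where all 42 genes entered, and lay between 0.26 and 0.38 under the other alternatives. A value counted as moved when it shifted by 0.12 or more, the SD of the spike differences. Single genes changed sign in 6 cases with the span trend removed and in 1 with the mean over probe sets, and in none under the floors, centrings, level trend or suffix rule. The FACIT median, -0.08 over 4 genes, turned to 0.13 with a floor of 6, to 0.02 without a floor (9 genes) and to 0.56 over 3 genes with the suffix rule. The proteoglycan median, 0.03, turned to -0.31 with the mean over probe sets, -0.04 with the span trend removed and -0.04 with centring on all genes, the folding median to -0.02 with that centring, and the propeptide median, 0.10, to -0.10 with the span trend and -0.01 with the level trend removed. Genes near the floor (Col6a4, Col9a3, Col18a1, Col20a1 and Col23a1) depend most on where it is set.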

Other observations

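Some proteins hold a collagen-like triple helix without carrying a collagen chain name. Of 26 such genes with a probe set of their own, 9 were measured, with a median log2 difference of 0.28. At 2-fold, 2 of the 9 were higher with T+E2 (4.96% of all measured genes were), 1 was lower (4.01% of all) and 6 were neither. The list was drawn up with results of these data known. Ccbe1, a secreted protein of lymphatic vessel development, went from 29.9, under the floor, to 255 (at least 7.97-fold higher). C1qtnf1 went from 193 to 387 (1.003), just past 2-fold, while its relative C1qtnf12 went from 207 to 61.4 (-1.75) and C1qtnf6 stayed close, at 1358 and 1503 (0.15). The scavenger receptor genes Scara3 (0.35) and Colec12 (0.31) were slightly higher, and Scara5 was at -0.02.

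A single probe set went far from the others of its gene in several matrix genes besides Col1a2. Dcn, the proteoglycan decorin, was at -0.58 in the probe set used and at -4.43 in the other. Fn1 was at 0.49 and -2.19, and the probe sets of Timp2 ran from -0.28 to 1.66. These genes were picked out after their values were seen.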
